A study of Mus musculus with 20 samples.

Results

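The response of mouse CD8+ T cells to native mouse interleukin-21 (mIL-21) at 1 nM was measured by RNA sequencing against unstimulated cells of the same experiment. The libraries were chosen by their titles and experiment number, and 4 of the 20 libraries of the series form this comparison: 2 duplicates with mIL-21 at 1 nM and 2 duplicates without cytokine. All groups held CD8+ T cells purified by negative selection from the spleens of wild-type C57BL/6J mice aged 6 to 8 weeks. Every group, the unstimulated one included, had been pre-activated for 48 h with plate-bound anti-CD3 at 2 µg/mL and soluble anti-CD28 at 1 µg/mL and then rested overnight. The cytokine was present for 24 h. The series tested mIL-21 against 21h10, a de novo designed IL-21 mimic, at 100 pM and 1 nM in experiment 1 and at 10 nM and 100 nM in experiment 2, with duplicate unstimulated libraries in each. The unstimulated cells are therefore recently activated T cells and not naive cells. The study's methods state, for flow cytometry and sequencing together, that replicates were independent and came from separate tissue preparations or donors. No source ties a duplicate number to a mouse, and p-values measure only the spread between duplicates.

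IL-21 is a cytokine made mainly by activated CD4+ T cells. It binds IL-21R paired with the common gamma chain, which is shared with the receptors for IL-2, IL-4, IL-7, IL-9 and IL-15, and signals through JAK1 and JAK3, chiefly to STAT3. In CD8+ T cells it is known to promote granzyme and perforin expression and, depending on the setting, to preserve less differentiated cells. STAT3 targets include Socs3, whose product inhibits cytokine receptor signaling.

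The unstimulated duplicates held 94070730 and 55272634 reads on genes, and the mIL-21 1 nM duplicates held 38337640 and 44453094. Levels are given as normalised CPM, which is the read count scaled to library size with TMM factors, for duplicate 1 and then duplicate 2. Summed levels of markers are CPM scaled to the reads on genes alone, without TMM factors. In every library T cell and CD8 markers were abundant, and summed CPM of 6 T cell markers went from 1696 and 1722 without cytokine to 2595 and 2745 with mIL-21. Markers of other cells were low. The summed level of 9 B cell markers was 11.5 to 11.9 CPM without and 12.9 to 13.0 CPM with mIL-21. Within that sum Ms4a1 had 44 and 35 reads without cytokine and 2 and 1 with it, Cd79a also fell, and Cd79b gave most of the reads. Ebf1, a transcription factor gene of B cells in the same list, rose from 17 and 9 reads to 100.0 and 120.0 (3.88 on the log2 scale). The 9 macrophage markers summed to 3.94 to 4.31 CPM without and 22.8 to 23.5 CPM with mIL-21. Nearly all of that came from Cd68, and C1qa, C1qb and C1qc were at 0 reads in the 4 libraries. The 6 dendritic cell markers summed to 4.63 to 5.50 CPM without and 13.2 to 13.8 CPM with mIL-21, mostly Itgax. The part of such cells in the results below was not tested. In bulk RNA, fewer cells of a type and less RNA per cell cannot be told apart.

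Most of the measured genes differed between the groups. Of 13974 genes tested, 5569 rose and 5631 fell with mIL-21 at 1 nM at an adjusted p under 0.05 (edgeR quasi-likelihood test with Benjamini-Hochberg adjustment, over the 10 libraries of experiment 1), which is 39.9% and 40.3% of them. Of these, 2611 (18.7%) rose and 1907 (13.6%) fell by at least 1 on the log2 scale, that is 2-fold. Large changes were mainly increases. At 4-fold or more 1030 genes rose and 376 fell, and at 16-fold or more 187 rose and 31 fell. The levels of the groups did not overlap for 12589 genes, or 90.1%. Gene groups are described below by their counts against these shares and by their median log2 fold change against a median of 0 over all genes. TMM scaling centres the fold changes near 0, so a shift shared by most genes would not show. A value with ± in the text is a log2 fold change with a standard error (SE), unless marked SD. The SE was back-calculated from the fold change and the F statistic of the test. For genes with few reads in a group it can be smaller than the counting error. A gene said to rise or fall passed the threshold.

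**Figure D1:**
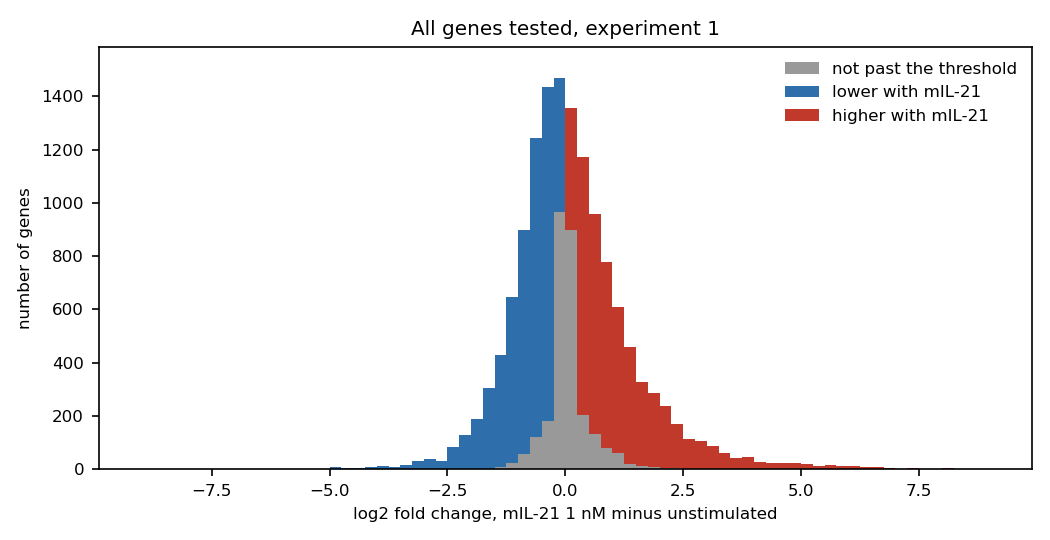
Number of genes (vertical axis) by log2 fold change of mIL-21 at 1 nM over unstimulated cells in experiment 1 (horizontal axis, bins of 0.25), for the 13974 genes tested, coloured by call at an adjusted p under 0.05. The right tail is longer, with 1030 rises and 376 falls of 4-fold or more.

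Socs3, the STAT3-induced feedback inhibitor, had 6.57 and 6.67 CPM without cytokine, 47.8 and 44.6 CPM with mIL-21 at 100 pM and 296 and 312 CPM at 1 nM. Both 1 nM libraries lay far above the rest, and duplicates were close to each other. The log2 fold change at 1 nM was 5.52 ± 0.074 (SE; adjusted p = 2.52e-19), or 46.0-fold. Il21r, which encodes the cytokine-specific receptor chain, had 125 and 121 CPM without cytokine and 232 and 237 CPM with it. Its groups did not overlap, with a log2 fold change of 0.93 ± 0.047 (adjusted p = 4.31e-12). Socs3 lies at chr11:117966079-117970336 and Il21r at chr7:125603252-125634397 on GRCm38.

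Promoters of the named genes that rose were searched for TTCNNNGAA, the general STAT-type motif, which reads the same on both strands. The search covered the 250 bases before the start of each gene in RefSeq on GRCm38.p6. Of 19 named risers with an entry, 3 held the motif (15.8%), namely Socs3, Nkg7 and Il7r. A promoter with the motif was found for 8.13% of all 27025 genes with an entry. The shares were 6.89% of 4091 genes that rose and 7.69% of 4215 genes that fell. Thus the genes that rose did not hold it more often than those that fell. Stretches of 100 bases from the 3 promoters are shown with the motif in capitals, 5′ to 3′ along the gene's strand. They come from chr11:117969466-117969565 on the minus strand, chr7:43436888-43436987 on the plus strand and chr15:9529941-9530040 on the minus strand. The Socs3 stretch lies before the start of the RefSeq entry used and inside the span of longer predicted transcripts. A match is a description of letters and not a shown binding site.
Socs3: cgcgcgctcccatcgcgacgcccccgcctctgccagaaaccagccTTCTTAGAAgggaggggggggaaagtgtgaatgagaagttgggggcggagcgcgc
Nkg7: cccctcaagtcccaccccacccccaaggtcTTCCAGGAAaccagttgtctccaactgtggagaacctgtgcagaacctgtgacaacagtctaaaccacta
Il7r: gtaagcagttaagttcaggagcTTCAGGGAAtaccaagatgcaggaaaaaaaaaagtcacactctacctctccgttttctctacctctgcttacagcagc
The motif began 154 bases before the start of Socs3 and 220 before that of Nkg7. The motifs are TTCTTAGAA, TTCCAGGAA and TTCAGGGAA, which differ in their middle letters.

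A set of 20 genes of cytokine signaling, effector function and memory was taken from the heat map shown for experiment 1. Of these, 14 rose, 3 fell and 3 did not pass the threshold at 1 nM, beside 39.9% of all genes that rose and 40.3% that fell. The groups did not overlap for 18 of the 20, near the share of 90.1% over all genes. The 20 genes were picked with these samples in view, so the counts are not independent evidence of direction. The cytolytic pore protein gene Prf1 rose from 18.6 and 18.4 CPM to 133.8 and 137.1 CPM, a log2 fold change of 2.87 ± 0.068. Gzmb, which encodes the protease delivered through that pore, rose from 2832 and 2793 to 6073 and 6115 CPM (1.12 ± 0.045). In both genes the 2 treated libraries were nearly equal and lay above the unstimulated ones. Prdm1, which encodes the terminal effector regulator Blimp-1, rose from 11.9 and 12.1 to 65.8 and 66.2 CPM (2.46 ± 0.058). Tigit, an inhibitory receptor gene, rose by 1.72 ± 0.059, Nkg7, a cytotoxic granule protein gene, by 1.37 ± 0.053, and Cish, a feedback inhibitor gene, by 1.63 ± 0.056. Genes of less differentiated cells were also higher. Tcf7, which encodes the memory and stem-like regulator TCF-1, rose from 294 and 298 to 422 and 421 CPM (0.51 ± 0.046), and Il7r, the IL-7 receptor chain gene, rose by 0.68 ± 0.057. Bcl2, which encodes a survival protein, rose by 0.99 ± 0.062, Ptprc (CD45) by 1.13 ± 0.063, Cd8a by 0.47 ± 0.045 and Cd27 by 0.37 ± 0.047.

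The fallers of this group were Socs2 (-1.09 ± 0.064), Socs5 (-0.28 ± 0.070) and Tbx21 (-0.24 ± 0.058), the last encoding the effector regulator T-bet. Tbx21 had 80.5 and 79.2 CPM without cytokine and 63.2 and 71.7 CPM with it, and the treated libraries were both lower. Ifng, the gene of the effector cytokine interferon gamma, had 5.60 and 5.45 CPM without and 6.47 and 5.28 CPM with mIL-21, and the groups overlapped (0.081 ± 0.11, adjusted p = 0.496). Of its exonic bases 25.9% are shared with Gm49751 on the same strand, so its reads may include those of that gene. Ccr7, a lymph node homing receptor gene, gave -0.071 ± 0.047 (adjusted p = 0.174), and Cd28 gave -0.071 ± 0.063 (adjusted p = 0.305).

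**Figure D2:**
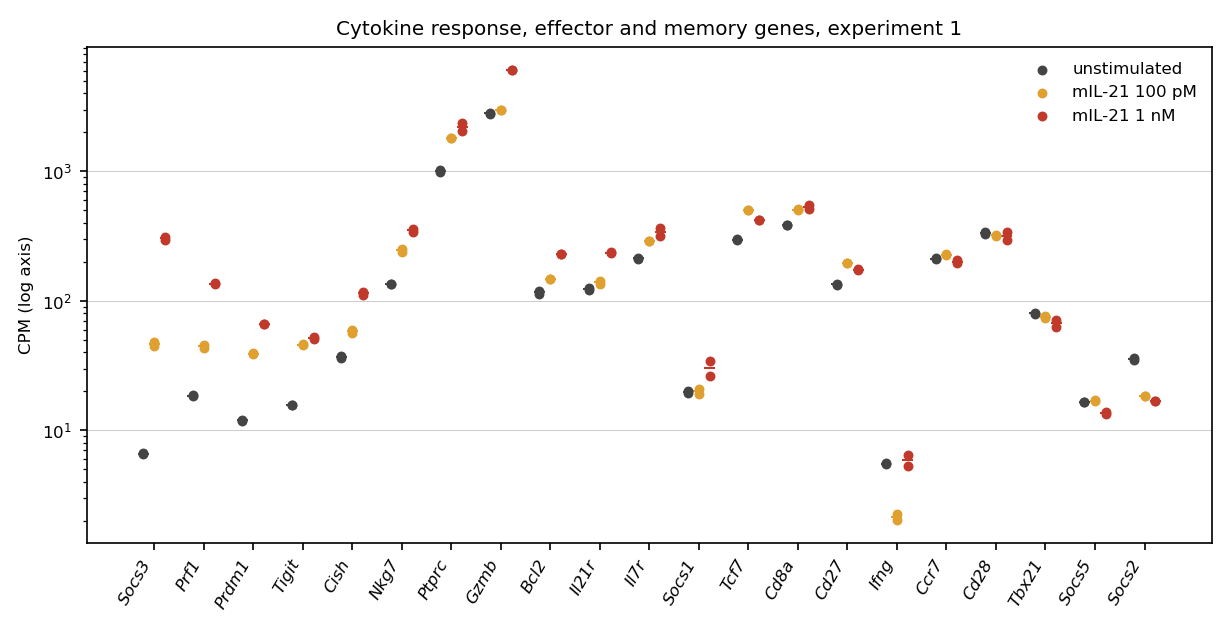
Normalised CPM (vertical log axis) of the 20 heat map genes and Il21r in each library of unstimulated cells, mIL-21 100 pM and mIL-21 1 nM, with points for libraries and short lines for means. Socs3 stands out, from 6.57 and 6.67 CPM in unstimulated libraries to 296 and 312 CPM at 1 nM.

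The receptors and signaling proteins that IL-21 uses moved in part. Of 8 receptors of the common gamma chain family 5 rose and 3 fell, with a median log2 fold change of 0.46. Besides Il21r these included Il4ra (1.18 ± 0.050), Il2ra, the high-affinity IL-2 receptor chain gene, from 949.9 and 932 to 1508 and 1452 CPM (0.65 ± 0.044), and the common gamma chain gene Il2rg itself (0.26 ± 0.044), of whose exonic bases 30.5% are shared with Gm20489 on the same strand. Il2rb (-0.17 ± 0.050), Il15ra (-0.38 ± 0.083) and the scarce Il9r (-2.11 ± 0.27) fell. Of 11 JAK and STAT genes 8 rose, 1 fell and 2 did not pass the threshold, with a median of 0.56. Jak3, whose kinase binds the common gamma chain, rose from 106 and 111 to 301 and 328 CPM (1.54 ± 0.057). Stat3 rose from 203.2 and 198 to 578 and 577 CPM (1.52 ± 0.046), and Stat5b rose by 1.03 ± 0.044.

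Among 12 feedback inhibitors 7 rose and 4 fell (median 0.26), so Socs3 was not typical of its family. Ptpn2, a phosphatase gene acting on JAK and STAT proteins, rose by 1.29 ± 0.053, while Socs6 and Socs4 fell by 0.75 and 0.53 on the log2 scale. Of 19 subunits of the IL-6, IL-10, IL-12, IL-18, IL-1 and interferon receptors 13 rose and 2 fell (median 0.55). Il12rb2, the signaling chain of the IL-12 receptor, rose from 173 and 175 to 569 and 531 CPM (1.66 ± 0.047), with 40.0% of its exonic bases overlapped by Serbp1 on the other strand. Il18r1 rose by 1.64 ± 0.064, Il18rap by 1.51 ± 0.075 and the interferon gamma receptor gene Ifngr1 by 1.61 ± 0.046.

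Cytotoxic genes mostly rose. Of 17 members 11 rose and 3 fell (median 0.49, but 1.00 without mIL-21 1 nM duplicate 2 and 0.78 by limma on log2(RPKM + 1)). Gzma, a tryptase-like granzyme gene, rose from 40.0 and 41.1 to 1017 and 1039 CPM, the largest change of the list (4.67 ± 0.057, adjusted p = 9.65e-20). Gzmk rose from 1.11 and 1.25 to 16.8 and 15.8 CPM (3.80 ± 0.10), and Ctsw, a cathepsin gene of cytotoxic cells, rose from 73.1 and 70.4 to 367 and 369.7 CPM (2.36 ± 0.052). Gzmf and Gzmm fell (-1.43 ± 0.16 and -1.19 ± 0.31), and Gzme and Gzmg did not pass the threshold. Gzmc had 20.8 and 19.1 CPM without cytokine and 40.0 and 9.93 CPM with it, so the treated duplicates disagreed and lay on either side of the unstimulated ones. Granzymes C to G are near copies of each other, and reads may have been divided among them.

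Of 12 effector transcription factor genes 9 rose and 3 fell (median 0.82, or 0.50 by limma on log2(RPKM + 1)). Bhlhe40, a regulator of T cell cytokine output and metabolism, rose from 131 and 129 to 529 and 543 CPM (2.04 ± 0.048). Id2, an inhibitor of E proteins that favours effector cells, rose from 99.4 and 96.7 to 289 and 282 CPM (1.54 ± 0.049), and Runx3, a CD8 lineage factor, rose by 1.45 ± 0.049. Irf4 and Eomes fell, as did Tbx21 (-0.82 ± 0.048 and -0.39 ± 0.054). Irf4 is induced by T cell receptor signals, and Eomes is a T-box factor of effector and memory cells. The T-box pair thus moved opposite to Prdm1 and Id2. Of 14 genes of resting and memory cells, 9 rose and 3 fell (median 0.44). Bcl6, which encodes a repressor that opposes Blimp-1, rose from 4.49 and 5.16 to 32.5 and 34.7 CPM (2.82 ± 0.083), so it rose together with Prdm1 in both libraries. Klf2, a quiescence and trafficking factor, rose by 1.49 ± 0.090, Foxo1 by 1.14 ± 0.051 and the egress receptor gene S1pr1 by 1.04 ± 0.050. Id3 fell by 1.29 on the log2 scale, Myb and Bach2 also fell, and Lef1 gave 0.043 ± 0.046 (adjusted p = 0.398).

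Inhibitory receptors were higher as a group: of 13 tested 11 rose and 0 fell (median 1.39), beside 39.9% of all genes that rose. Lag3, which binds MHC class II, rose from 40.5 and 41.2 to 386 and 427 CPM (3.32 ± 0.060). Entpd1 and Nt5e, which encode the ectoenzymes CD39 and CD73 that turn extracellular ATP into adenosine, rose by 2.85 ± 0.063 and 2.03 ± 0.062. Havcr2 (TIM-3) rose by 1.54 ± 0.062, Ctla4 by 1.39 ± 0.050 and Cd244 by 2.74 ± 0.17. Pdcd1, which encodes PD-1, had 28.0 and 27.2 CPM without and 30.1 and 30.03 CPM with mIL-21 (0.12 ± 0.076, adjusted p = 0.141), and Btla gave -0.12 ± 0.081 (adjusted p = 0.166). Btla was lower past the threshold without mIL-21 1 nM duplicate 1 (-0.30, adjusted p = 0.000610) and with no filter (adjusted p = 0.0440), and Pdcd1 was higher with the compared groups alone (adjusted p = 0.0476). Costimulatory receptors also leaned upward, with 8 of 12 rising and 1 falling (median 0.68). Those of the TNF receptor family led: Tnfrsf9 (4-1BB) rose from 120.1 and 117 to 882 and 940.3 CPM (2.94 ± 0.052), Tnfrsf4 (OX40) by 2.27 ± 0.058 and Tnfrsf18 (GITR) by 2.01 ± 0.053, with 27.2% of the last overlapped by Gm16008 on the other strand. Slamf6 fell (-0.30 ± 0.081).

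Of 23 cytokine genes tested 11 rose and 8 fell (median 0.33). Without unstimulated duplicate 1, 8 rose and 7 fell (median 0.19), and the median was 0.18 by limma and with the compared groups alone. Il10, which encodes an immunoregulatory cytokine, rose from 0.465 and 0.491 to 11.97 and 12.3 CPM (4.67 ± 0.15). Il24 rose by 2.20 ± 0.14, Osm and Lif of the IL-6 family by 1.83 ± 0.081 and 1.07 ± 0.069, and Ltb of the TNF family by 1.48 ± 0.057. Of other TNF family genes Tnf (-1.45 ± 0.092), Lta (-1.61 ± 0.094) and Tnfsf11 (-1.79 ± 0.12) fell, as did the growth factor gene Csf2 (-1.05 ± 0.099). Il21 itself had 1.42 and 1.62 CPM without and 0.818 and 0.854 CPM with mIL-21 (-0.84 ± 0.22).

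Of 9 chemokine genes 2 rose and 5 fell (median -0.45). Cxcl10, an interferon-induced ligand of CXCR3, had 1319 and 844 reads without cytokine and 1 and 3 with mIL-21. The groups lay far apart, at 14.3 and 15.3 against 0.0256 and 0.0674 CPM, and the level was lower by a ratio of 306 (95% interval 119 to 1126), an interval that covers counting error only. It lies at chr5:92346638-92348889. Xcl1, which encodes lymphotactin, fell from 18.1 and 18.6 to 1.94 and 2.49 CPM (-3.04 ± 0.11), and 18.7% of its exonic bases overlap Gm20743 on the other strand. Ccl1 had 30 and 34 reads without cytokine and 0 in both treated libraries. It was at least 12.1-fold lower by a floor of 3 reads over the group, and the lower end of its 95% interval was 9.55-fold. Ccl4 rose (1.65 ± 0.13), while Ccl3 did not pass the threshold (-0.34 ± 0.16, adjusted p = 0.0636), though it did under 4 alternatives (adjusted p = 0.0178 to 0.0495).

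Chemokine receptors changed strongly in both directions, with 7 of 14 rising and 5 falling. Their median of 0.24 rested on single libraries, since it was 0.061 without mIL-21 1 nM duplicate 2 and 0.39 without duplicate 1. It was 0.51 with the compared groups alone and 0.73 by limma, which tested 10 of them and called 7 higher and 3 lower. Ccr2, a receptor for monocyte chemoattractants, rose from 19.1 and 16.3 to 144 and 126 CPM (2.92 ± 0.073). Cxcr6 rose by 2.86 ± 0.073, and Cxcr4, the receptor for CXCL12, from 28.2 and 27.0 to 186 and 201 CPM (2.81 ± 0.058). Ccr8, Ccr4 and Cxcr3 fell (-2.68 ± 0.17, -2.09 ± 0.067 and -1.21 ± 0.067). Of 14 integrin genes 12 rose and 1 fell (median 1.03, or 0.62 by limma). Itgam, which encodes CD11b, rose from 0.670 and 0.836 to 58.1 and 56.6 CPM (6.28 ± 0.099), though 68.7% of its exonic bases are shared with Gm49368 on the same strand. Itgb7, a partner in gut homing integrins, rose by 1.41 ± 0.055 and Itgb3 by 2.08 ± 0.050, whereas Itgb1 fell from 722 and 714 to 387 and 368 CPM (-0.93 ± 0.049).

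Interferon-stimulated genes were lower as a group. Of 37 tested 24 fell and 8 rose (median -0.82), beside 40.3% of all genes that fell. The GTPase gene Iigp1 fell from 55.1 and 49.4 to 6.39 and 4.77 CPM (-3.24 ± 0.10). Irgm1 fell from 225 and 218 to 57.2 and 51.1 CPM (-2.03 ± 0.055), and the antiviral genes Mx1, Mx2, Ifit1 and Oasl2 also fell (-1.87 ± 0.087, -2.45 ± 0.15, -2.24 ± 0.12 and -2.94 ± 0.24). The risers included Ly6a (1.06 ± 0.051), Ly6e (0.55 ± 0.061), Ddx58 (0.54 ± 0.051) and Irf1 (0.19 ± 0.044), so the list did not move as one. Antigen presentation was divided too, with 8 of 16 MHC class I and processing genes rising and 6 falling (median 0.15, but 0.083 without mIL-21 1 nM duplicate 2). B2m and the class I heavy chain genes H2-K1 and H2-D1 rose (0.43 ± 0.048, 0.50 ± 0.055 and 0.55 ± 0.053), as did the peptide transporter gene Tap1 (0.85 ± 0.053). Proteasome activator and trimming genes Psme2 (-1.15 ± 0.044), Psme1 (-0.53 ± 0.046) and Erap1 (-0.93 ± 0.061) fell. Reads of the H2 heavy chain genes may be divided among near copies.

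Genes linked to STAT3 and type 17 cells rose in 12 of 16 cases, with 1 fall (median 1.35, or 0.59 by limma). Bcl3, an NF-κB cofactor gene, rose from 13.5 and 14.99 to 132 and 157 CPM (3.35 ± 0.083), Fosl2 from 16.5 and 16.0 to 109 and 115 CPM (2.78 ± 0.057) and the aryl hydrocarbon receptor gene Ahr by 2.26 ± 0.11. Rora, which encodes a nuclear receptor of type 17 cells, rose by 1.94 ± 0.12 from a low level of 2.45 and 2.16 CPM. The type 17 cytokine genes stayed near the detection limit, with Il17a at 17 and 11 reads without and 21 and 19 with mIL-21. Of 16 AP-1, EGR and NR4A genes 8 rose and 4 fell (median 0.22). Jun and Junb rose (1.15 ± 0.069 and 1.38 ± 0.071), and Egr2 and Nr4a3, both induced by antigen receptor signals, fell (-2.31 ± 0.20 and -0.71 ± 0.18). Of 15 NK-type receptor genes 12 rose and 0 fell (median 0.90). Cd7 was far ahead of the others, from 1.59 and 1.40 to 43.5 and 47.1 CPM (4.90 ± 0.10), with 10.8% of its exonic bases overlapped by Gm11775 on the other strand. The NK cell markers Ncr1, Klrb1c, Klra8, Klra4 and Gata2 summed to 1.66 and 1.77 CPM without and 2.16 and 2.07 CPM with mIL-21. Of 19 T cell receptor and proximal signaling genes 16 rose and 0 fell (median 0.45), among them Themis (1.41 ± 0.074), Plcg1 (1.30 ± 0.044), Zap70 (1.14 ± 0.064) and Cd3e (1.12 ± 0.066).

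Ribosome biogenesis and DNA replication had the largest shares of falling members among the 28 gene lists. All 25 ribosome biogenesis genes fell, 24 of them by at least 1 on the log2 scale (median -2.03). Utp20, a component of the small-subunit processome, fell from 181 and 187 to 21.1 and 17.6 CPM (-3.25 ± 0.074), and the box C/D snoRNP gene Nop56 from 474 and 464 to 80.9 and 83.8 CPM (-2.51 ± 0.047). Npm1, which encodes a nucleolar chaperone, fell least (-0.57 ± 0.063). DNA replication genes fell in 24 of 25 cases, 19 of them by at least 1 (median -1.32). The licensing factor gene Cdc6 fell from 142.9 and 139.1 to 32.1 and 31.1 CPM (-2.16 ± 0.055) and the sliding clamp gene Pcna from 827 and 815 to 267 and 275 CPM (-1.60 ± 0.048), with Pold1 alone not past the threshold (0.021 ± 0.058, adjusted p = 0.742). Mitosis genes fell in 22 of 25 cases, with 2 rises, but by less (median -0.55). Both the cyclin gene Ccnb1 (-1.34 ± 0.049) and the topoisomerase gene Top2a (-0.30 ± 0.056) were among the fallers.

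Regulators of growth and G1 moved both ways, with 10 of 17 rising and 6 falling (median 0.60). Pim1, a STAT-induced survival kinase gene, rose from 41.6 and 42.9 to 259.9 and 277 CPM (2.67 ± 0.054), with 14.5% of its exonic bases overlapped by Gm26885 on the other strand. Myc fell from 308 and 312 to 200.1 and 208.4 CPM (-0.60 ± 0.047), and Ccne2 and Ccnd2 fell (-1.81 ± 0.059 and -0.93 ± 0.043). Inhibitors of cyclin-dependent kinases were higher, Cdkn1a by 1.52 ± 0.047 and Cdkn1b by 1.56 ± 0.051. In the BCL2 family 5 of 15 rose and 8 fell (median -0.19, but -0.10 with 7 falls without mIL-21 1 nM duplicate 1). The survival genes Bcl2 and Mcl1 rose (0.99 ± 0.062 and 0.35 ± 0.047) and Bcl2l1 fell (-0.51 ± 0.067). Of the death-promoting members Bax and Bid fell (-1.06 ± 0.068 and -1.34 ± 0.069), and Bcl2l11 (BIM) rose (1.11 ± 0.051), so neither side moved as one.

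Glycolysis genes all rose. The 19 genes tested were called higher, 12 of them by at least 1 (median 1.23). Slc2a3, a high-affinity glucose transporter gene, rose from 79.1 and 79.7 to 927 and 910.0 CPM (3.53 ± 0.050) and Slc2a1 from 72.1 and 72.8 to 376 and 397 CPM (2.42 ± 0.050). The aldolase gene Aldoc went from 10.7 and 9.99 to 268 and 283 CPM (4.73 ± 0.062), and Aldoa from 1358 and 1366 to 4973 and 5574 CPM (1.95 ± 0.056). In each of these genes both treated libraries lay well above both unstimulated ones. Slc16a3, which exports lactate, rose by 2.09 ± 0.059, and Pdk1, which restrains pyruvate entry into mitochondria, by 1.74 ± 0.048. Ldha rose least (0.17 ± 0.047). Per length, Aldoa rose from 725 ± 16.7 RPKM (mean ± SD, n = 2) to 2734 ± 133 and Ldha from 1076 ± 16.1 RPKM (mean ± SD, n = 2) to 1184 ± 18.6, so Aldoa was the more highly expressed of the pair with mIL-21. Cholesterol synthesis genes rose in 17 of 20 cases, with 2 falls (median 0.77), for example Hmgcs1 (1.33 ± 0.051) and Pmvk (1.61 ± 0.056). Idi1 fell (-0.78 ± 0.061).

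Secretory pathway and amino acid genes behaved differently. ER chaperone genes fell in 15 of 20 cases, with 3 rises (median -0.84). Hspa5, which encodes the main ER chaperone BiP, fell from 811 and 793 to 294 and 271 CPM (-1.51 ± 0.057), whereas Ddit3, the stress-induced factor CHOP, rose from 8.85 and 8.59 to 59.99 and 63.4 CPM (2.82 ± 0.076). Targets of ATF4 and tRNA synthetase genes were balanced, with 11 rises and 11 falls among 25 (median 0.020, whose sign turned under 3 of the alternatives). Ddit4 rose by 2.15 ± 0.055 and Trib3 by 1.99 ± 0.083, and the serine synthesis genes Phgdh and Psat1 fell (-1.26 ± 0.055 and -0.82 ± 0.045).

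**Figure D3:**
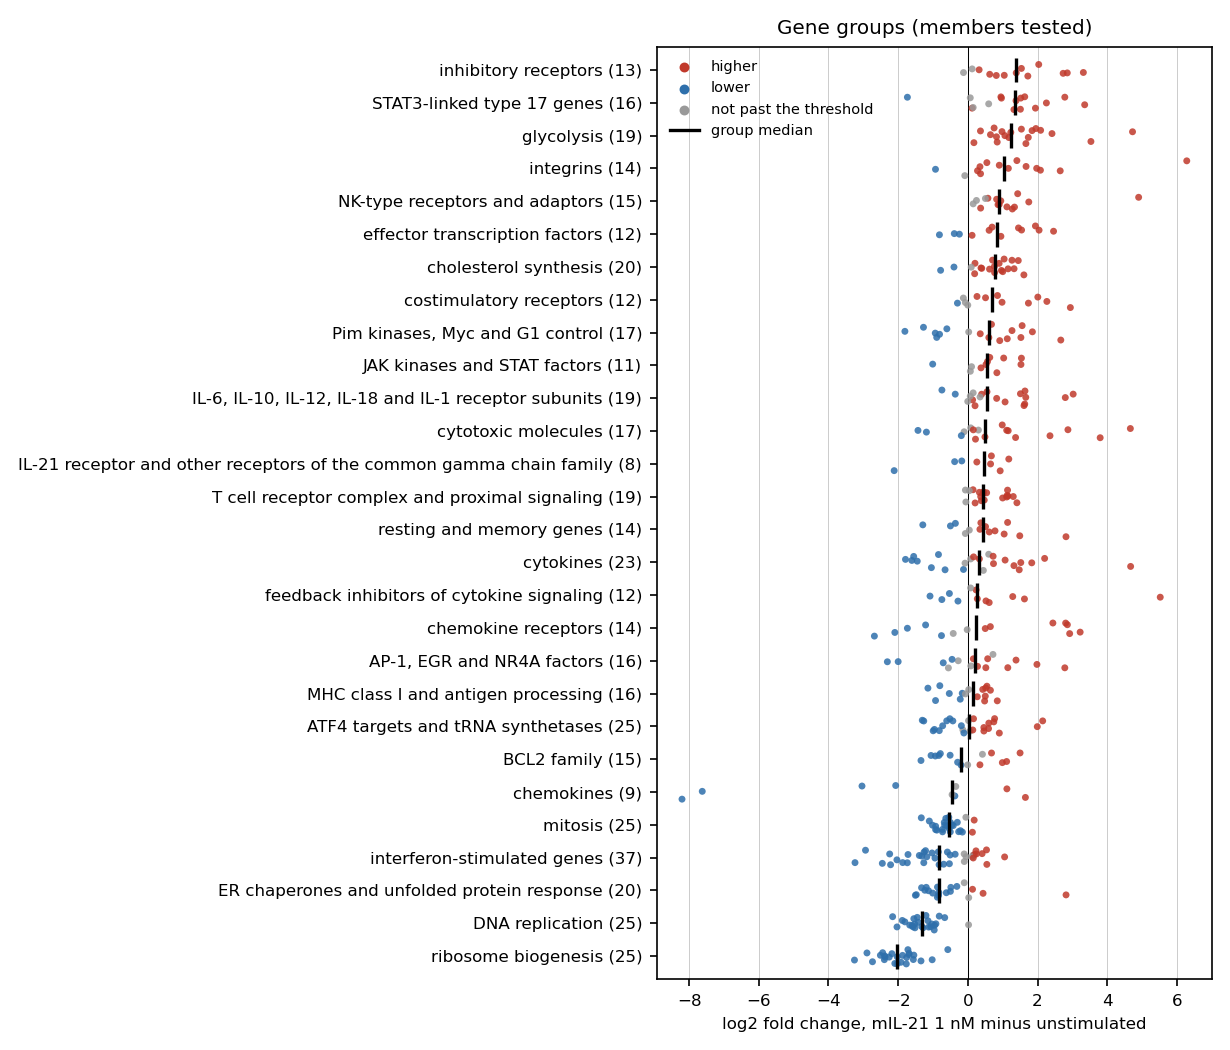
Log2 fold change of mIL-21 at 1 nM over unstimulated cells (horizontal axis) for the members of 28 gene lists, with a point for each gene coloured by its call and a black line for the list median. Glycolysis points all lie above 0 (median 1.23), and ribosome biogenesis points all lie below 0 (median -2.03).

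The largest rises started from near absence. Serpinb5, a serpin family gene at chr1:106861175-106883348, had 0.141 and 0.145 CPM without cytokine and 69.8 and 69.8 CPM with mIL-21 at 1 nM (8.91 ± 0.11, adjusted p = 9.65e-20). Serpinb1a, a serpin gene whose product blocks neutrophil-type serine proteases, rose from 0.486 and 0.309 to 45.1 and 48.0 CPM (6.79 ± 0.12). The duplicates were close in both genes and in both groups. Kif1a, a kinesin motor gene best known from neurons, had 8 and 4 reads and then 799 and 1091, a ratio of 278 (95% interval 159 to 539). Grin1, an NMDA receptor subunit gene, had 3 and 4 reads and then 557 and 686, a ratio of 313 (95% interval 152 to 781). Fxyd7, which encodes a regulator of the sodium pump, had 4 and 4 reads and then 443 and 598, a ratio of 229.7 (95% interval 116 to 533). In each of the 3 genes both treated libraries lay above 400 reads, and 13.5% of the exonic bases of Grin1 overlap Grin1os on the other strand. The incretin receptor gene Gipr, the laminin receptor chain gene Itga7, the cytokine gene Tgfb3 and the E-cadherin gene Cdh1 completed the 10, with log2 fold changes of 6.99, 6.73, 6.69 and 6.31, next to Itgam.

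Among the 10 largest falls, Cxcl10 led. Akr1c18, which encodes a progesterone-inactivating reductase, fell from 7.72 and 7.49 to 0.256 and 0.360 CPM (-4.60 ± 0.25). The transcripts D030028A08Rik and 4933405E24Rik also fell (-4.03 ± 0.13 and -5.05 ± 0.45). The other 6 were short RNAs, Snord69, Snord52, Snord87, Snord42a, Snord16a and Mir1306. Snord69 had 51 and 40 reads without and 1 and 0 with mIL-21. Reads on such features may come from the genes around them. Of the 6 genes around them on the same strand, Gnl3 (-2.74) and Dgcr8 (-3.03) fell. Snhg6 (0.99), Rpl23a (0.36) and 1110038B12Rik (0.11) rose, and Rpl4 did not pass the threshold (0.099, adjusted p = 0.0682). All bases (100%) of Snord69, Snord52, Snord16a and Mir1306 are shared with annotated exons of Gnl3, 1110038B12Rik, Rpl4 and Dgcr8, respectively, on the same strand. Snord42a shares 100% with Tlcd1 on the other strand. With a minimum of 5 CPM in the higher group, added after the values were seen, protein-coding genes came forward. Tfrc, which encodes the transferrin receptor for iron uptake, fell from 1019 and 988 to 112 and 92.5 CPM (-3.29 ± 0.071). The retinoid receptor gene Rxra fell (-3.79 ± 0.12), and so did Tnfsf4, the OX40 ligand gene (-3.58 ± 0.13). The OX40 ligand gene thus fell while its receptor gene Tnfrsf4 rose. Further named genes share exonic bases with a neighbour. Bax, Pfkm and Klrb1c share 10.2% to 13.9% on the same strand, and Bid, Ccne2, Csf2, D030028A08Rik, Erap1, Gzmf, Hmgcs1, Lef1 and Ovol1 share 11.5% to 19.8% with 1 gene on the other strand.

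The comparison of 1 nM with 100 pM mIL-21 asked which genes differed between doses. Of 13974 genes 2503 (17.9%) were higher and 2322 (16.6%) lower at 1 nM than at 100 pM. Without duplicate 1 at 100 pM the calls dropped from 4825 to 3009, and limma on log2(RPKM + 1) called 1228 higher and 3804 lower. The dendritic cell markers summed to 37.1 and 37.0 CPM at 100 pM, above the 1 nM libraries, and their part in the dose results was not tested. This comparison and that with unstimulated cells share the 1 nM libraries, so the overlap of their calls is a description. Of the 5569 genes that rose against unstimulated cells, 1798 were also higher at 1 nM than at 100 pM, 3255 did not pass the threshold between doses and 516 were lower. Of the 5631 that fell, 1486 were lower still at 1 nM, 3710 did not pass the threshold and 435 were higher. The largest rise with dose was that of Serpinb5, which had 1.51 and 1.20 CPM at 100 pM (5.67 ± 0.082 between doses). Gcnt1, an O-glycan branching enzyme gene of activated T cells, had 1.37 and 1.58 CPM unstimulated, 1.05 and 0.871 CPM at 100 pM and 17.1 and 16.4 CPM at 1 nM (4.10 ± 0.12). Il10 had 0.949 and 0.692 CPM at 100 pM (3.86 ± 0.15). At the lower dose these 3 genes lay closer to the unstimulated libraries than to the 1 nM ones. Gzmb was similar, with 2954 and 2965 CPM at 100 pM against 2832 and 2793 CPM without cytokine (1.04 ± 0.045 between doses). The largest falls with dose were those of the protease gene Capn3 (9.96 and 9.54, then 10.9 and 10.9, then 1.20 and 1.10 CPM), of Xcl1 (11.8 and 11.1 CPM at 100 pM) and of Hemgn (13.9 and 14.7 CPM at 100 pM).

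Other large responses were present at 100 pM. Itga7 had 40.6 and 39.0 CPM at 100 pM and 36.0 and 36.5 CPM at 1 nM (-0.13 ± 0.061, adjusted p = 0.104). Grin1 and Cdh1 gave 0.014 ± 0.097 and -0.093 ± 0.069 between doses (adjusted p = 0.930 and 0.325). Cxcr4 gave 0.034 ± 0.053 and Jak3 -0.031 ± 0.055. Among gene lists, 23 of 25 ATF4 targets and synthetase genes, 19 of 20 cholesterol synthesis genes and 14 of 16 type 17 genes were higher at 1 nM than at 100 pM, against 17.9% of all genes. In the other direction, 23 of 37 interferon-stimulated genes and 17 of 25 DNA replication genes were lower, against 16.6% of all genes. Resting and memory genes were lower at 1 nM than at 100 pM in 9 of 14 cases and higher in 4. Effector transcription factor genes were higher in 10 of 12 cases and lower in 2. ATF4 targets, balanced against unstimulated cells, thus differed between doses in 1 direction. The 25 genes of that list summed to 3923 and 3952 CPM unstimulated, 2947 and 2906 at 100 pM and 4030 and 4170 at 1 nM. These sums are without TMM factors. As 1 example, Slc7a5, an amino acid transporter gene, gave 0.46 against unstimulated cells and 1.63 between doses. At 100 pM against unstimulated cells, which shares the unstimulated libraries, Slc7a5 gave -1.17, Socs3 2.81, Prf1 1.27 and Gzmb 0.074.

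**Figure D4:**
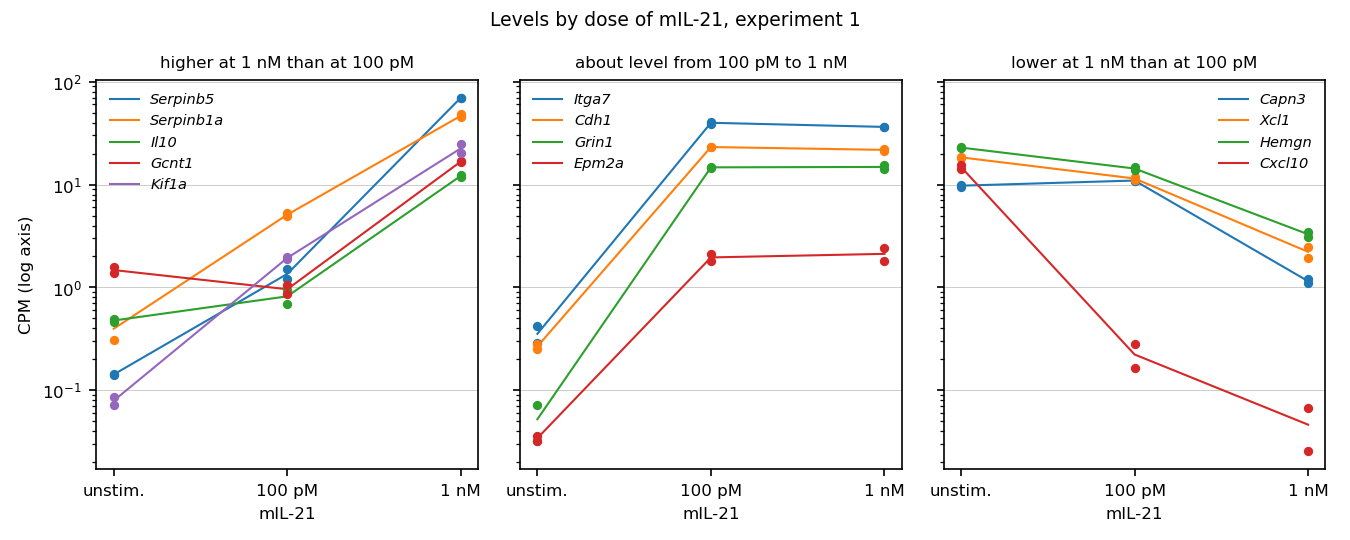
Normalised CPM (vertical log axis) in each library of unstimulated cells, mIL-21 100 pM and mIL-21 1 nM for genes that rose mostly between doses (left), genes that had risen at 100 pM (middle) and genes that fell (right). Serpinb5 had 1.51 and 1.20 CPM at 100 pM and 69.8 and 69.8 at 1 nM, while Itga7 had 40.6 and 39.0 and 36.0 and 36.5.

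At the same 1 nM dose, 2735 genes (19.6%) were higher and 2536 (18.1%) lower with 21h10 than with mIL-21, against 1734 and 2485 by limma on log2(RPKM + 1), 3295 and 2203 with RLE factors and 3037 and 1923 by DESeq2. The dendritic cell markers summed to 7.91 and 8.52 CPM with 21h10, below the mIL-21 libraries, and their part was not tested. Serpinb5 had 447 and 462 CPM with 21h10 against 69.8 and 69.8 with mIL-21 (2.70 ± 0.050), and Socs3 had 686 and 606 CPM against 296 and 312 (1.09 ± 0.056). Il10 and Gcnt1 were also higher with 21h10 (2.67 ± 0.086 and 2.27 ± 0.070), as was Prf1 (0.97 ± 0.060). Lower with 21h10 were Capn3 (-2.30 ± 0.29), Xcl1 (-2.16 ± 0.21), Cdh1 (-1.82 ± 0.080) and Tcf7 (-0.56 ± 0.047). Against the shared unstimulated libraries, 21h10 at 1 nM gave log2 fold changes of 6.61 for Socs3, 7.34 for Il10 and -5.38 for Capn3.

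Experiment 2 tested mIL-21 at 10 nM against its own unstimulated cells, so its libraries are independent of those above, and dose and experiment change together. In that experiment 3098 of 13772 genes (22.5%) rose and 3265 (23.7%) fell, against 1691 and 4070 by limma on log2(RPKM + 1). The spread within groups, as a common coefficient of variation, was 4.32% in the fit of experiment 1 and 8.80% in that of experiment 2. Calls depend on this spread, and its part in the counts and shares given here was not tested. Over the 13248 genes tested in both, 1909 genes rose in both, which is 36.2% of the risers of experiment 1 and 62.8% of those of experiment 2. Both experiments had 1848 falls in common, 33.6% and 56.7% of the respective lists. Of the risers of experiment 1 a further 939 (17.8%) fell in experiment 2, and of the fallers 676 (12.3%) rose. Across these genes, which are not independent replicates, r was 0.350 (Pearson) and rho was 0.294 (Spearman) for the fold changes. The responses differed between experiments for 4270 of 14530 genes (29.4%) upward in experiment 1 and for 4152 (28.6%) downward, by a test of the difference of the responses in 1 fit of all 20 libraries.

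Socs3 rose in both. It went from 11.9 and 11.8 to 322 and 344 CPM in experiment 2 (4.82 ± 0.089), against 5.52 ± 0.074 in experiment 1. Serpinb5, Il10, Gzma, Prf1 and Cd7 rose by 8.28 ± 0.15, 8.66 ± 0.19, 6.08 ± 0.12, 4.02 ± 0.11 and 4.26 ± 0.12. Of 1737 risers that were also higher at 1 nM than at 100 pM, 54.6% rose in experiment 2 and 12.6% fell. Of 3027 risers that did not pass the threshold between doses 27.5% rose and 17.7% fell, and of 509 risers that were lower at 1 nM 25.3% rose and 36.3% fell. The difference between these shares was not tested. Itga7, which did not pass the threshold between doses, had 17.997 and 13.2 CPM without and 6.55 and 11.8 CPM with mIL-21 in experiment 2, so its unstimulated level there was far above that of experiment 1. Grin1 gave 0.37 ± 0.31 in experiment 2 (adjusted p = 0.352).

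Several directions differed. Ifng rose from 4.19 and 4.75 to 57.5 and 56.3 CPM in experiment 2 (3.67 ± 0.12), and the difference between experiments was -3.54 ± 0.16 (adjusted p = 1.58e-13). Socs2 rose there (1.43 ± 0.11) and fell in experiment 1, a difference of -2.47 ± 0.12. Tbx21 rose there as well (0.40 ± 0.088), and Cxcr4 and Tnfrsf4 fell there (-1.26 ± 0.11 and -1.16 ± 0.17). Glycolysis genes, all higher in experiment 1, were lower for 14 of 19 and higher for 1 in experiment 2 (median -0.52), and the difference passed the threshold for all 19. Pfkm, a phosphofructokinase gene, had 35.8 and 32.0 CPM without and 11.7 and 15.2 CPM with mIL-21 in experiment 2 (-1.33 ± 0.15), against 1.84 ± 0.051 in experiment 1. Ribosome biogenesis genes fell for 9 of 25 and rose for 1 in experiment 2 (median -0.14, which was -0.23 and -0.086 without mIL-21 10 nM duplicate 1 or 2 and -0.30 by limma), and all 25 differed between experiments, 24 toward the larger fall in experiment 1. DNA replication genes fell in both, 22 of 25 in experiment 2 (median -0.87), and 21 of 37 interferon-stimulated genes fell there. Among the widest gaps were those of Ovol1, a zinc finger factor gene (10.63 ± 0.95), and of Epm2a, a glycogen phosphatase gene (8.45 ± 0.87), both larger in experiment 1. They rest on few reads in places, since Ovol1 had 0.241 and 0.573 CPM without and 0.0279 and 0 CPM with mIL-21 in experiment 2, and Epm2a had 0.433 and 0.327 and then 0.0279 and 0.0927 CPM. In the other direction were the long noncoding RNA gene Miat (-7.08 ± 0.61), Afap1l1 (-7.27 ± 0.85) and the snoRNA gene Snora62 (-6.60 ± 1.53). Miat had 1.18 and 0.584 CPM with mIL-21 in experiment 1 and 26.5 and 33.3 CPM in experiment 2, and 24.3% of its exonic bases overlap Gm26953 on the other strand.

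**Figure D5:**
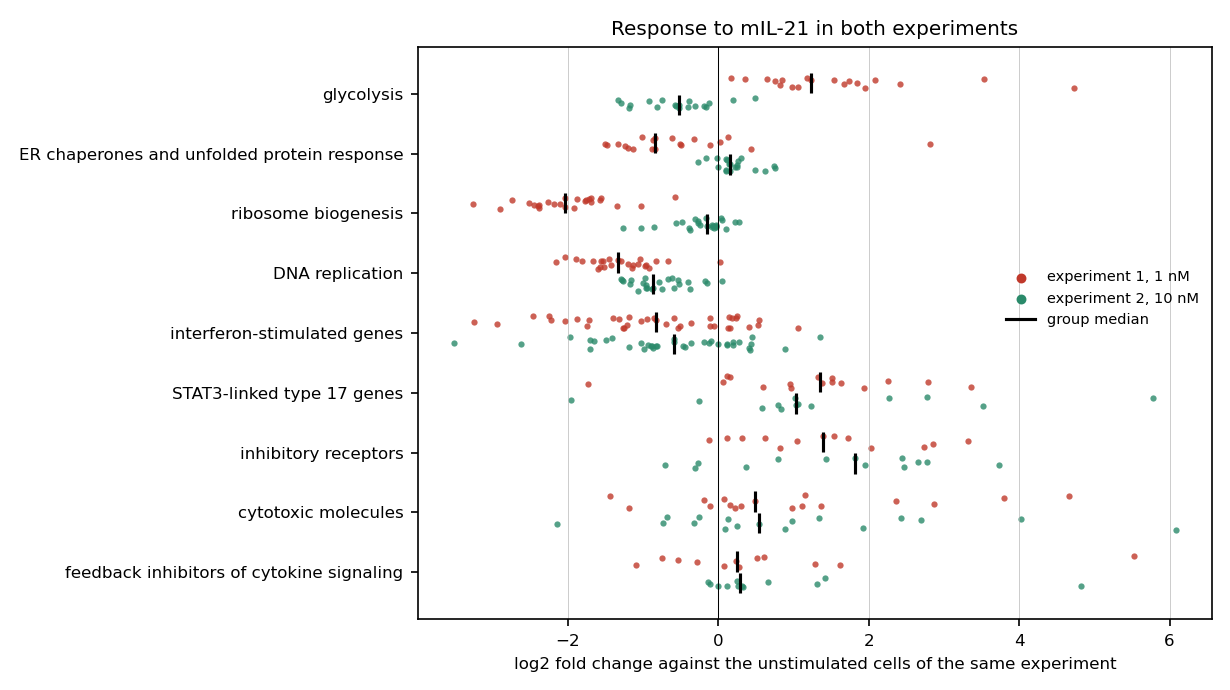
Log2 fold change (horizontal axis) of mIL-21 over unstimulated cells in experiment 1 (1 nM) and experiment 2 (10 nM) for the members of 9 gene lists, with a point for each gene and a black line for the median. Glycolysis medians lie on opposite sides of 0 (1.23 and -0.52), and DNA replication medians lie below 0 in both (-1.32 and -0.87).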

How the data were processed

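RNA from mouse splenic CD8+ T cells was made into libraries with the KAPA mRNA HyperPrep kit and sequenced on a NovaSeq. Per the labels, the authors' processing named TopHat2 2.0.11, Bowtie2 2.2.6, SAMtools 0.1.8, bedtools 2.25.0 and edgeR, with mm10. The deposited tables hold raw read counts and RPKM per transcript. The authors computed RPKM per length and per library size. The counting tool, annotation version and strand setting are not given in the sources used here, so reads of overlapping genes may be mixed.

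From 31682 transcripts the longest of each of 23992 symbols was kept. For 618 symbols another transcript held more reads. Counts were filtered with filterByExpr (minimum count 10, total 15), TMM-scaled and tested with edgeR 4.0.16 (quasi-likelihood test, R 4.3.3) across the 10 libraries of experiment 1, with Benjamini-Hochberg adjustment over all genes and a threshold of 0.05. Experiment 2 was fitted alone, and the difference of responses in all 20 libraries. The scripts were tested on simulated data. Depth in experiment 1 was 36824740 to 94070730 reads on genes, and duplicates differed beyond counting noise. With 2 libraries against 2, an exact permutation test of a single value cannot go below p = 0.333 and was not used. Intervals and floors cover counting error only.

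The gene lists and the compared groups were chosen with earlier results of these data known. Named genes were the 20 heat map genes, Il21r, the 10 largest rises and falls, the 3 largest differences each way by dose and by experiment (past the threshold, no overlap between groups, the higher group at a mean of 1 RPKM or more), list extremes and list members. Some genes that this rule selects are not reported here. Alternatives were RLE factors, DESeq2 1.42.0, no filter, the most-read transcript, limma 3.58.1 on log2(RPKM + 1) for genes with 1 RPKM or more in 2 libraries, library sizes from mapped reads, the compared groups alone, a 2-fold limit, a replicate block and leaving out each library. The pairing of duplicate numbers is not stated, and the correlation of same-numbered deviations between mIL-21 1 nM and unstimulated libraries was 0.143.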

Additional observations from a re-analysis of the deposited data

Results flagged for a closer look

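The response to mIL-21 differed between 1 nM in experiment 1 and 10 nM in experiment 2 for 8422 genes, by a test of the difference of the responses in edgeR. Dose and experiment change together here and cannot be told apart. Among gene lists the difference passed the threshold for 19 members of the glycolysis list and for 25 members of the ribosome biogenesis list.

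Of the heat map genes, the log2 response in experiment 1 minus that in experiment 2 was -0.60 for Tbx21, -1.10 for Prf1, -1.26 for Gzmb, -3.54 for Ifng and -2.47 for Socs2. These genes had the lower response in experiment 1, whereas the effector gene Prdm1 and the feedback gene Socs3 had the larger one there. The same difference was 0.38 for Prdm1, 0.83 for Cd27, 0.39 for Cd28, 0.23 for Cd8a, 0.31 for Bcl2, 1.40 for Tigit and 0.75 for Socs3. The receptor gene Il21r gave -0.80. Of the genes with the widest gaps, Ovol1 gave 10.63 and Epm2a 8.45, and in the other direction Afap1l1 gave -7.27, Miat -7.08 and Snora62 -6.60. Of 475 other named or listed genes with a test, 164 had the larger and 167 the smaller response in experiment 1. With 2 libraries a group no library could be tested as standing apart within its group.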

How the results depend on the processing

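The 11200 calls of mIL-21 at 1 nM against unstimulated cells were 9326 to 11337 under the other tools, filters and scalings, and 10324 to 10849 without 1 library of the compared groups. With a change of at least 1 on the log2 scale also required, 4518 calls were left, against 555 for the doses (main 4825), 622 for 21h10 against mIL-21 (5271), 1869 for experiment 2 (6363) and 3757 for the difference between experiments (8422). With that limit, 19.2% of the calls of experiment 1 were shared with experiment 2 in direction, against 34.9% without it. Leaving out 1 library gave 3009 to 4255 calls for the doses, the lowest without mIL-21 100 pM duplicate 1, and 4000 to 5711 for 21h10, 4749 to 6366 for experiment 2 and 7617 to 8498 for the difference between experiments. With the replicate number as a block, the counts were 11143, 4557, 5025, 6540 and 8450 in the same order. No source pairs the duplicates, and same-numbered deviations correlated at -0.324 between mIL-21 10 nM and unstimulated libraries of experiment 2. With crossed numbers the counts were 5360 for 21h10 and 6813 for experiment 2.

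With limma on log2(RPKM + 1) the median over genes was -0.10 for the main comparison, -0.11 for the doses and -0.16 for experiment 2. The higher share of calls was 44.3% in place of 49.7% for the main comparison (4132 higher and 5194 lower). It was 24.4% in place of 51.9% for the doses. For experiment 2 it was 29.4% in place of 48.7%, and for 21h10 it was 41.1% in place of 51.9%. For 21h10 it was 59.9% with RLE factors and 61.2% with DESeq2. The cause was not tested. In experiment 2 limma called 15 ribosome biogenesis genes lower in place of 9 and 15 mitosis genes in place of 7.

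Lifr, a receptor subunit gene at a few reads, went from 3.02 to -0.21 (adjusted p = 0.520) with the most-read transcript in place of the longest. No other named or listed gene that passed the threshold changed direction. Of those not past it, 21 changed sign under some alternative, and 0 of these passed it under the same alternative. Ifng gave -0.058 and Gzmc -0.998 without mIL-21 1 nM duplicate 1, and Gzmc passed with no filter (0.28, adjusted p = 0.000994). Without mIL-21 1 nM duplicate 1, Cd28 passed the threshold (-0.17, adjusted p = 0.0264) and Miat did not (0.66, adjusted p = 0.126). Snora62 did not pass with DESeq2 (-2.52, adjusted p = 0.0636) or without that library (-1.50, adjusted p = 0.117). Depth limits genes with few reads in the unstimulated libraries, for which fold changes are imprecise.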
